A study of Mus musculus with 12 samples.

Results

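Leukocytes in the prostate of TRAMP mice were compared 1 week after a combined Tumor+Allo/Y T cell transfer and 1 week after an Allo/Y transfer alone. The comparison used 6 of the 12 arrays of the study, namely samples 7, 8 and 9 (Tumor+Allo/Y) and samples 1, 2 and 3 (Allo/Y), with 3 mice in each group. Probes were used where 3 or more of the 12 arrays detected them at p under 0.05, which kept 23054 of 45281. Of these, 19235 carried 1 gene symbol and gave 11971 genes, each read from its brightest probe, and 3819 carried none or several. The study also hybridized 3 mice that received the Tumor transfer alone and 3 that were taken 28 days after the combined transfer. These arrays also entered the choice of probes, the normalization and the estimate of the spread between mice, and a count against the Tumor group is given near the end.

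The mice of both groups are labelled C57Bl/6 (TRAMP). TRAMP mice carry a viral oncogene that the probasin promoter drives in prostate epithelium, so they develop prostate tumors. The labels give the treatments as Allo/Y ACT and Tumor+Allo/Y ACT, where ACT is adoptive cell transfer, and they do not spell out Allo/Y. Both groups therefore received Allo/Y, both carry the transgene, and neither is an untreated control. RNA came from CD45+ cells of the prostate, where CD45 is the surface phosphatase of leukocytes. Labels for age are not among those used here. A difference describes what the combined transfer held over Allo/Y alone at this 1 time, and 3 mice per group set its precision.

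Values below are log2 signals after background correction and quantile normalization. They are given as those of samples 1, 2 and 3 against those of samples 7, 8 and 9. Differences are log2 differences of Tumor+Allo/Y minus Allo/Y ± SE from a limma fit, with n = 3 per group, and a gene is called at an adjusted p under 0.05. In RNA from a bulk of cells, fewer cells of a type and less RNA per cell cannot be told apart.

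The CD45+ label was checked against markers before any comparison. Ptprc, which encodes CD45, measured 5.38, 5.37 and 5.67 in Allo/Y against 7.79, 7.36 and 8.24 in Tumor+Allo/Y, above background on all 6 arrays. All 23 measured genes of a list expressed by leukocytes in general rose, by 0.63 to 2.87, and their mean went from 9.06 ± 0.12 (SD, n = 3) to 11.14 ± 0.22. Epithelial RNA was present in both groups as well. Of 27 tested keratin and cell junction genes, 23 were above background on all 6 arrays, and the list's mean was 10.3 ± 0.1 in Allo/Y against 8.32 ± 0.69 in Tumor+Allo/Y. Within Tumor+Allo/Y that mean was 7.94 in sample 7, 9.11 in sample 8 and 7.9 in sample 9. The Allo/Y arrays thus held more epithelial and less leukocyte transcript per unit of RNA than the combined arrays, and the part of this shift in each gene below was not tested.

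Sample 8 stood apart from the other Tumor+Allo/Y arrays. Across genes it correlated at 0.917 to 0.930 with the Allo/Y arrays, whereas samples 7 and 9 correlated with them at 0.840 to 0.869. Among the 5734 called genes, sample 8 lay nearest to Allo/Y in 4263 (74.3%), sample 9 in 1038 (18.1%) and sample 7 in 433 (7.55%). Without sample 8 the fit called 6222 genes, 2686 higher and 3536 lower. Without sample 7 it called 3950 genes, with 2171 lower in place of 3267. Allo/Y arrays were closer to one another, with a median SD per gene of 0.133 against 0.254 in Tumor+Allo/Y.

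Interferon-γ is made by activated T cells and natural killer cells. It acts through the kinases JAK1 and JAK2, and many of its target genes carry short palindromic GAS elements, while targets of type I interferons often carry ISRE elements. Targets of both include guanylate-binding proteins that attack intracellular vacuoles, the antigen-presentation machinery and chemokines that draw T cells through the receptor CXCR3. Prostate epithelium and the seminal vesicle secrete large amounts of a few proteins into the seminal fluid, so their transcripts are easily seen in any preparation that holds some of that tissue.

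The transfers differed in a large share of genes. Of 11971 genes, 5734 were called (47.9%), 2467 higher in Tumor+Allo/Y (20.6%) and 3267 lower (27.3%). The 3 values of one group lay wholly above or below the 3 of the other in 7437 genes (62.1%), higher in 3306 (27.6%) and lower in 4131 (34.5%). Differences of 2-fold or more were found for 1325 called genes that rose and 1709 that fell, and of 8-fold or more for 101 and 50. The median difference over all genes was −0.04. Counts for gene families below stand against these shares, and a family with a share near them did not stand out. Many genes entered only through the group in which they were high. Of the genes named below with their differences, Atp13a4, Cfi, Ctso, Eln, Il23a, Ly6g6d, Noxa1, Sva and Zbtb8b were above background on 1 combined array and Aqp5, Cyp4a12a, Depp1, Itgax, Krt5, Svs3a, Tlr3 and Wfdc6b on 2, while Cd177, Csf2rb, Cxcr5, F10, Itgam and Slamf1 were so on 2 Allo/Y arrays and Itgax on 1, so that part of each group's values lay at background. Among the 9426 genes above background on all 6 arrays, 2137 rose and 2504 fell.

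**Figure D1:**
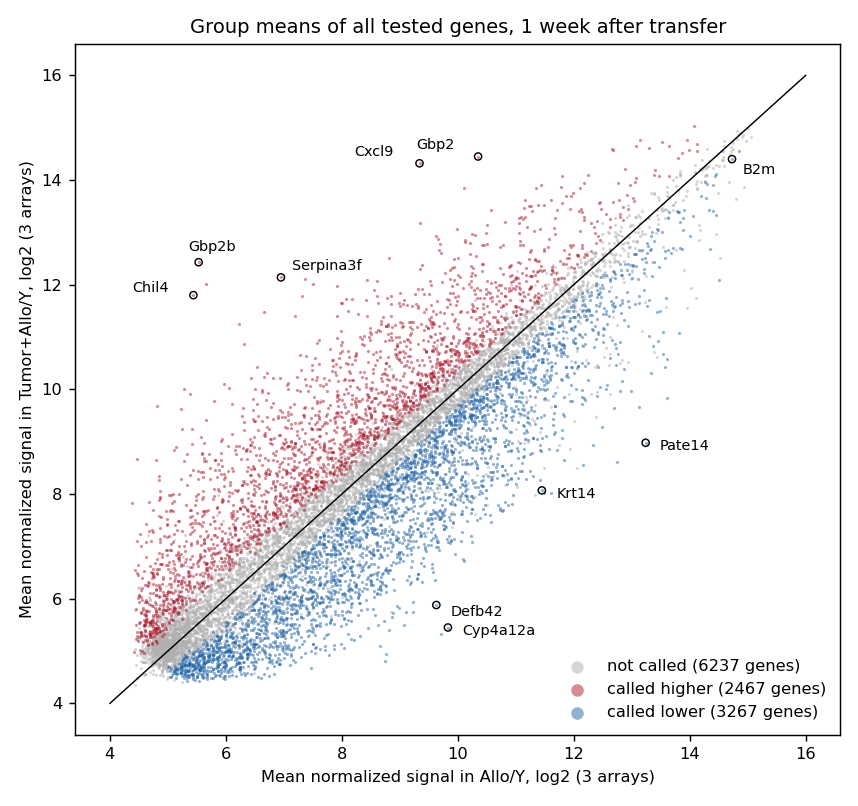
Mean log2 signal of each of 11971 genes in Allo/Y (horizontal axis) and Tumor+Allo/Y (vertical axis), n = 3 arrays each. Red points are the 2467 genes called higher, blue points the 3267 called lower and grey points the 6237 not called; the black diagonal marks equal means and 10 genes are named.

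The promoters of some risen genes, an antiviral gene among them, are shown as examples of the interferon-response words. Each holds a match, and they are not a sample of the steepest rises. Serpina3f and Cxcl9, which rose more than Gbp2 and Gbp5, are not shown. Among windows of genes called higher by 8-fold or more, 26.2% held an ISRE word and 23.8% a GAS word. Each line gives the 250 bases before the RefSeq start on GRCm38.p6, read 5′ to 3′ on the gene's strand. Capitals mark matches to the ISRE word GAAANNGAAA or the GAS word TTCNNNGAA, searched on both strands, and a match is a description of letters and not of binding. Gbp2b lies at chr3:142594597-142594846 (plus strand), Gbp2 at chr3:142620413-142620662 (plus), Gbp5 at chr3:142496684-142496933 (plus), Calhm6 at chr10:34127973-34128222 (minus), Isg15 at chr4:156200819-156201068 (minus), Chil3 at chr3:106167565-106167814 (minus) and Chil4 at chr3:106219480-106219729 (minus).
Gbp2b: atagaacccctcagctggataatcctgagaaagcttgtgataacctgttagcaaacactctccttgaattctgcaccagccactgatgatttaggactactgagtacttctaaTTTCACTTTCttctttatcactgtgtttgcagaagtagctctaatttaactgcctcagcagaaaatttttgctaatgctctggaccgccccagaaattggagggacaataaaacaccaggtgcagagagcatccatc
Gbp2: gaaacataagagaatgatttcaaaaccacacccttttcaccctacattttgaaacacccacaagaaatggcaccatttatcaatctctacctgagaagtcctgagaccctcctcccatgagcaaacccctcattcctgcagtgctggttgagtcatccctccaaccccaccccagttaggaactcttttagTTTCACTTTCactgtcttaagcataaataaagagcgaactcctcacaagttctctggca
Gbp5: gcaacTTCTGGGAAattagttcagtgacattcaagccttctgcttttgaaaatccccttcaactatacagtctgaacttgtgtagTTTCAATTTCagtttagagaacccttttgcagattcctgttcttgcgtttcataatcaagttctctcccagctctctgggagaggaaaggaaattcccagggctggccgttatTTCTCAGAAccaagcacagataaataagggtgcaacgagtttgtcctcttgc
Calhm6: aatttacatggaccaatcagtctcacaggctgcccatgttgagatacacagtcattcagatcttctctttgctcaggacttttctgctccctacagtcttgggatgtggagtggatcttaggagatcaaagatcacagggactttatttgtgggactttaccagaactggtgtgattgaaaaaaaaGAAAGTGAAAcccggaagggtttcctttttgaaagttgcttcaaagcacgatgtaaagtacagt
Isg15: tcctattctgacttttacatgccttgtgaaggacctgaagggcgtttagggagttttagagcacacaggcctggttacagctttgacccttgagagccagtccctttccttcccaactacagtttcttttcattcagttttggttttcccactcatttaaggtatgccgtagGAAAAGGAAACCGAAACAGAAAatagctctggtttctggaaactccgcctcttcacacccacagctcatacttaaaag
Chil3: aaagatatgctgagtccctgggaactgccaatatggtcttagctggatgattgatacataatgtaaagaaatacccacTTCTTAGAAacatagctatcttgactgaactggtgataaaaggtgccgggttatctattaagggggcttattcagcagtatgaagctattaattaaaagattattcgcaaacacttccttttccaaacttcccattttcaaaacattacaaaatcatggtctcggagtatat
Chil4: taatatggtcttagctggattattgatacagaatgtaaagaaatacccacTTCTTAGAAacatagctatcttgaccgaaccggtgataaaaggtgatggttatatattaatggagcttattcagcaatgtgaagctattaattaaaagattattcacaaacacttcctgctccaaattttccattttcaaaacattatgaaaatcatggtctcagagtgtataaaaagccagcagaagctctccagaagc
Gbp2b and Gbp2 carry the same ISRE match, TTTCACTTTC, at positions −137 and −59 from the start. Gbp5 holds an ISRE match at −165 and GAS matches at −245 and −52. In Isg15, 3 ISRE matches at −78, −72 and −66 overlap one another. Chil3 and Chil4, neighbors with closely similar letters, share the GAS match TTCTTAGAA at −172 and −200.

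Across genes, the words were counted in windows of 250 bases before to 50 bases after each start. A window was at hand for 9654 of the 11971 tested genes. An ISRE word stood in 3.89% of these and in 3.99% of all 27025 windows of the table. It stood in 127 of 1966 windows of genes called higher (6.46%), in 82 of 2645 of genes called lower (3.1%) and in 21 of 80 of genes called higher by 8-fold or more (26.2%). The GAS word stood in 8.45% of tested windows, in 10.6% of those of genes called higher and in 23.8% of those of genes called higher by 8-fold or more. Of the 10 interferon-induced GTPase genes with a window, 9 held an ISRE word and 5 a GAS word. These shares carry no test.

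**Figure D2:**
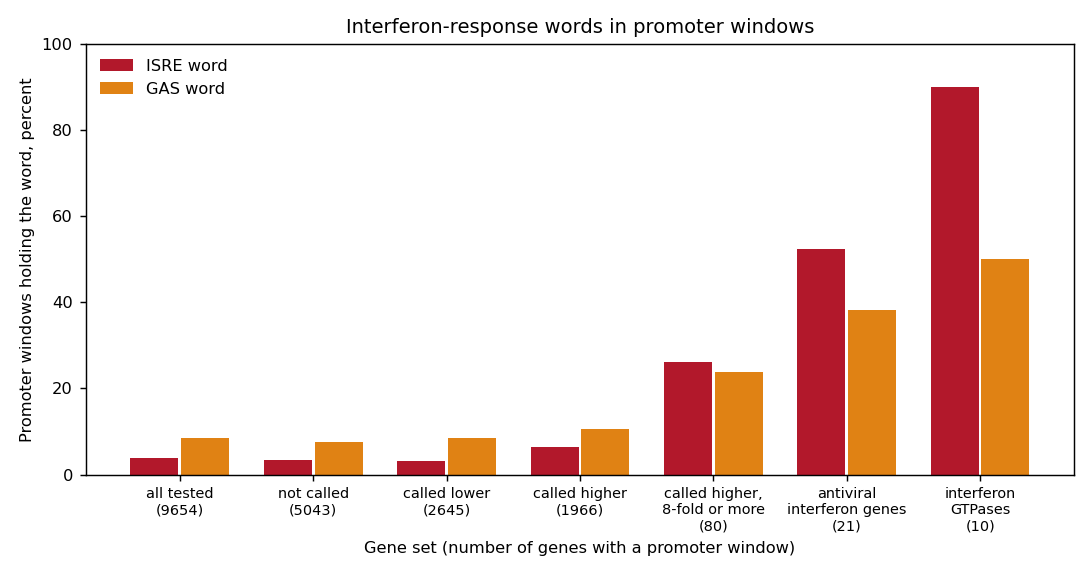
Percent of promoter windows (vertical axis) that hold the ISRE word (red) or the GAS word (orange) in 7 sets of genes (horizontal axis, with the number of genes that have a window). The ISRE share was 3.31% for genes not called, 6.46% for genes called higher, 26.2% for those higher by 8-fold or more and 52.4% for the antiviral interferon list.

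Guanylate-binding proteins and immunity-related GTPases made up the family with the steepest rise among those with at least 3 members. Of 16 tested genes (21 listed, 20 on the array), 15 rose and 1 did not pass, with a median of 3.13 against −0.04 over all genes. Gbp2b measured 5.31, 5.49 and 5.79 against 12.57, 11.8 and 12.93, a 119-fold rise (log2 6.9 ± 0.65, adjusted p = 6.68e-05). Every Tumor+Allo/Y array lay above every Allo/Y array, which the rule for naming rises requires. Ifi47, an immunity-related GTPase, measured 6.94, 7.29 and 7.35 against 11.75, 10.64 and 11.81 (4.21 ± 0.49). Gbp2 measured 10.29, 10.36 and 10.4 against 14.74, 13.78 and 14.82 (4.1 ± 0.42), and its other probes gave 0.8 to 5.3. Gbp5, which helps assemble the inflammasome, rose by 4.0 ± 0.59, and its other probe gave 1.75. Gbp11 did not pass, at 0.77 ± 0.4 (adjusted p = 0.135), and was above background on no Allo/Y array and on 2 combined arrays. In all 15 risen members sample 8 was the combined array nearest to Allo/Y. Members of this family are alike in sequence, and cross-hybridization between them was not tested.

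Schlafen genes, growth regulators of the T and myeloid lineages that interferon induces, were represented by 2 tested members of 9 listed. Both rose. Slfn1 measured 6.12, 6.91 and 6.94 against 11.67, 10.8 and 11.95, a 28.1-fold rise (adjusted p = 4.47e-05). Slfn2 measured 6.01, 6.69 and 6.88 against 10.32, 9.14 and 9.7, a 9.14-fold rise (adjusted p = 0.000567).

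The interferon-γ axis, from the cytokine to its receptor chains and inducers, held 20 tested genes, of which 17 rose, none fell and 3 did not pass (median 1.81). The cytokine gene itself, Ifng, measured 7.88, 8.03 and 8.03 against 10.83, 11.02 and 10.7. The 3 combined arrays lay close together, and sample 8 was the highest of them. Il12rb1, the chain shared by the receptors for IL-12 and IL-23, was above background on no Allo/Y array and on all 3 combined arrays, and was at least 9.62-fold higher (adjusted p = 0.000365). Il18rap, the accessory chain of the IL-18 receptor, measured 4.81, 5.01 and 5.33 against 8.5, 7.86 and 7.57 (2.93 ± 0.27), though it was above background on only 1 Allo/Y array and its other probe gave 0.45 and was not called. The transcriptional master regulators of antigen presentation also rose. Ciita, for class II, rose 10.5-fold (3.39 ± 0.41), and Nlrc5, for class I, rose 7.77-fold (2.96 ± 0.16, adjusted p = 1.43e-05). Irf1, an early interferon-γ target, went from 12.25, 12.16 and 12.34 to 14.27, 13.67 and 14.32. The receptor chain Ifngr2 did not pass at −0.29 ± 0.21, and neither did Il18bp, the decoy that binds IL-18, at 0.67 ± 0.27.

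All 29 tested antiviral genes of the type I interferon program rose (36 listed, 33 on the array; median 1.91), and in 27 of them sample 8 lay nearest to Allo/Y. Oas3, a sensor of double-stranded RNA, was above background on no Allo/Y array and was at least 7.21-fold higher. Trim30a measured 7.41, 7.48 and 7.57 against 10.68, 10.08 and 10.65 (2.99 ± 0.28). Isg15, a ubiquitin-like modifier, measured 9.5, 9.85 and 9.78 against 12.56, 12.23 and 13 (2.89 ± 0.22). Oas2 rose by 2.69 ± 0.24. These 4 genes were picked among members whose groups did not overlap, so their separation follows from the choice.

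Most genes of antigen presentation by class I rose. Of 20 tested genes, 17 rose, 2 fell and 1 did not pass (median 1.26). Tap1, a subunit of the peptide transporter, measured 8.2, 8.49 and 8.49 against 11.31, 10.47 and 11.29 (2.63 ± 0.27). Psmb9 and Psmb8, the interferon-induced catalytic subunits of the immunoproteasome, rose by 2.28 ± 0.23 and 2.05 ± 0.26. H2-Q6, a class Ib molecule of a family with near-identical copies, rose by 2.14 ± 0.19. The 2 that fell were Pdia3, a loading chaperone, at −0.66 ± 0.19 and B2m, the invariant light chain, at −0.33 ± 0.11. B2m measured 14.79, 14.66 and 14.75 against 14.39, 14.28 and 14.54, so its groups did not overlap although the step was small. The other B2m probe gave −0.13 and was not called, and the call was lost without sample 1, 2, 3, 7 or 8. Calr, a further chaperone, gave −0.49 ± 0.24 and did not pass, while the loading factors Tapbp and Tapbpl, chosen after their values were seen, rose by 0.9 ± 0.31 and 1.72 ± 0.17.

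The constitutive proteasome behaved unlike the immunoproteasome subunits. Of 11 tested genes, 2 rose, none fell and 9 did not pass (median 0.38), a share near the 20.6% of all genes. The risen genes were the core subunits Psma4 at 0.75 ± 0.24 and Psma7 at 0.52 ± 0.19. Psmb6, the catalytic subunit whose place Psmb9 takes, measured 12.27, 12.11 and 12.26 against 12.23, 12.19 and 12.2, a difference of −0.01 ± 0.13 (adjusted p = 0.974). A p of this size does not show equality.

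Class II presentation rose throughout. All 16 tested genes were called higher (median 2.08), all 16 above background on all 6 arrays. The costimulatory receptor Cd40 measured 7.82, 8.2 and 8.23 against 11.96, 11.17 and 12.07, a 12.5-fold rise (adjusted p = 0.000107). H2-DMb1 and H2-DMb2, chains of the peptide editor of class II, rose by 3.0 ± 0.35 and 2.72 ± 0.34.

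Chemokines split by their receptor. Of 13 tested CXC genes (16 listed), 4 rose, 2 fell and 7 did not pass (median 0.35). The CXCR3 ligand Cxcl9 measured 9.41, 9.17 and 9.43 against 14.59, 13.72 and 14.64 (4.98 ± 0.38, adjusted p = 3.19e-05), and Cxcl10 measured 10.3, 10.26 and 10.32 against 13.23, 12.08 and 13.53 (2.65 ± 0.41). Both rose more than the other risen members. Cxcl13, which draws B cells, rose by 1.36 ± 0.32, and Cxcl2, which draws neutrophils, rose by 1.33 ± 0.25. Cxcl15, known in the mouse from lung epithelium, fell from 8.64, 8.82 and 8.5 to 5.81, 6.73 and 5.99 (−2.47 ± 0.46). Cxcl14, made by epithelium and stroma, fell by 0.91 on the log2 scale. Cxcl16 at 0.35 ± 0.19 did not pass.

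Among 16 tested CC chemokine genes, 9 rose, 1 fell and 6 did not pass (median 1.27). Those that rose most attract monocytes. Ccl2, the main ligand of CCR2, measured 7.95, 7.88 and 8.21 against 11.17, 10.19 and 11.33 (2.88 ± 0.5). Ccl6 rose by 3.07 ± 0.55, Ccl8 by 2.55 ± 0.39 and Ccl9 by 2.2 ± 0.31. Ccl3 and Ccl4 are inflammatory chemokines of macrophages and T cells. Ccl3 measured 12.36, 12.5 and 12.2 against 12.25, 12.59 and 12.33 (0.04 ± 0.24), and Ccl4 measured 14.12, 14.17 and 13.99 against 14.21, 14.35 and 14.31 (0.2 ± 0.13). Neither passed, while Ccl5 rose by 1.43 ± 0.27. The Ccl4 probe lay near the top of the scale, as did those of Gbp2, Cxcl9 and B2m. Whether such bright probes were saturated was not tested. Ccl27a, an epithelial chemokine, fell by 1.56 on the log2 scale.

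Chemokine receptors gave 9 higher, 1 lower and 4 not passing of 14 tested (22 listed; median 1.63). Ccr2, the receptor of inflammatory monocytes, measured 4.91, 5.21 and 5.31 against 9.25, 7.34 and 10.12, a 13.6-fold rise (adjusted p = 0.00415), and was above background on 2 Allo/Y arrays. Sample 8 was the lowest combined array. The receptor of Th1 and effector CD8 T cells, Cxcr3, measured 7.04, 7.26 and 7.29 against 9.58, 9.81 and 8.66 (2.15 ± 0.33), and here sample 9 was the lowest. Ccr8, which activated regulatory T cells carry, was at least 3.23-fold higher, above background on no Allo/Y array. Ccrl2 rose by 1.77 ± 0.35. Ackr3, a scavenging receptor, was above background on all 3 Allo/Y arrays and no combined array and was at least 1.48-fold lower. Ccr4, a receptor of Th2 and regulatory T cells, gave 0.11 ± 0.17 and did not pass.

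Of 27 tested interleukin and hematopoietic cytokine genes (35 listed), 15 rose, 1 fell and 11 did not pass (median 1.0). The antagonist of the IL-1 receptor, Il1rn, measured 6.09, 7.4 and 6.37 against 10.1, 9.2 and 10.57 (3.34 ± 0.58), and Il1b itself rose by 1.18 ± 0.32. Osm, oncostatin M, measured 9.98, 10.48 and 10.26 against 13.18, 12.26 and 13.46 (2.73 ± 0.43). Il27, a dendritic cell cytokine that favors Th1 cells, was above background on no Allo/Y array and was at least 4.31-fold higher. Cytokines of other programs rose alongside. Il4, the Th2 cytokine, measured 6.42, 6.78 and 6.36 against 8.48, 8.28 and 9.47 (2.23 ± 0.79, adjusted p = 0.0396), a call that was lost in the authors' normalized values and without sample 1, 2, 3, 7, 9 or 10. Il10 rose by 1.83 ± 0.43, Tgfb1 by 2.22 ± 0.21 and Il18 by 1.78 ± 0.46. Il7, which stroma and epithelium make for lymphocyte survival, fell from 7.31, 7.4 and 7.27 to 5.99, 6.27 and 6.22. Il6 at 0.45 ± 0.48, Il15 at 0.38 ± 0.19 and Il23a at −0.09 ± 0.31 did not pass.

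Receptors of these cytokines gave 18 higher, 1 lower and 8 not passing of 27 tested (median 1.27). Csf2rb, the β chain shared by the receptors for GM-CSF, IL-3 and IL-5, rose by 2.96 ± 0.49. The near-identical Csf2rb2, the β chain of the IL-3 receptor alone, rose by 3.04 ± 0.6. Whether their probes tell them apart was not tested. Csf3r, the granulocyte growth factor receptor, measured 6.36, 6.64 and 6.66 against 9.39, 8.41 and 9.85 (2.67 ± 0.54). Il1r2, the IL-1 decoy, rose by 2.59 ± 0.41. Il17rc, an IL-17 receptor chain of epithelium, fell by 1.87 on the log2 scale. Osmr, the partner of the risen Osm, gave −0.13 ± 0.25 and did not pass.

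The TNF superfamily had 29 tested genes, of which 20 rose, 2 fell and 7 did not pass (median 1.18). Receptors of activated T cells led. Tnfrsf4 (OX40) measured 7.29, 7.61 and 7.84 against 11.16, 11.22 and 10.27, a 9.87-fold rise (adjusted p = 0.000153). Tnfrsf9 (4-1BB) measured 5.47, 5.58 and 5.89 against 8.96, 8.71 and 8.24, a 7.94-fold rise. Cd27 rose by 2.46 ± 0.41 and Tnfrsf18 (GITR) by 2.4 ± 0.35. In all 4, sample 9 was the lowest combined array. Tnf itself rose by 1.18 ± 0.16. The falling members were Tnfrsf19, an epithelial progenitor receptor, at −2.92 ± 0.83 and the death receptor Tnfrsf21 at −1.84 ± 0.26.

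Downstream, 13 of 18 tested NF-κB genes rose, 2 fell and 3 did not pass (median 1.0). The inhibitor Nfkbie measured 7.94, 8.47 and 8.44 against 11.51, 10.8 and 12.02 (3.16 ± 0.3). Tnfaip2 rose by 3.66 ± 0.79, Traf1 by 2.09 ± 0.19 and Nfkb2 by 1.68 ± 0.18. As background, Nfkbie, Traf1 and Nfkb2 are themselves induced by NF-κB. Traf2, an adaptor, was above background on no combined array and was at least 1.75-fold lower. Ikbkg, the regulatory subunit of the kinase complex, fell by 0.56 on the log2 scale, but its other probe gave 0.39 and was not called. The main subunit gene Rela, at 0.07 ± 0.16, did not pass, and neither did Nfkbiz at 0.4 ± 0.18.

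Complement genes numbered 19 tested (26 listed), of which 11 rose, 2 fell and 6 did not pass (median 0.95). Cfb, the protease of the alternative pathway and an interferon-γ target, was above background on no Allo/Y array. It measured 4.61, 4.95 and 4.87 against 10.04, 8.72 and 10.26, at least 25.7-fold higher (adjusted p = 0.000357). C4b measured 8.25, 8.7 and 8.82 against 11.41, 11.09 and 10.78 (2.5 ± 0.27). The terminal component C6 rose by 2.73 ± 0.52, C1qa by 1.35 ± 0.18 and Itgam, a chain of complement receptor 3, by 2.6 ± 0.64. Of the regulators, Cd59a fell by 1.58 on the log2 scale and Cfi fell by 1.28. Itgax gave 0.35 ± 0.2 and C1s1 gave 0.42 ± 0.25 without passing, though another probe of each was called higher, at 0.77 and 0.94.

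Fc receptors for IgG rose as a set of 4. Of 10 tested genes of the family, 7 rose and 3 did not pass (median 1.84). Fcgr4 measured 9.71, 10.27 and 10.34 against 13.99, 13.36 and 14.19, a 13.3-fold rise (adjusted p = 9.41e-05). The high-affinity receptor Fcgr1 rose by 3.37 ± 0.55, Fcgr3 by 2.56 ± 0.39 and the inhibitory Fcgr2b by 2.42 ± 0.45. The neonatal receptor Fcgrt gave 0.7 ± 0.29 and did not pass, though its other probe was called at 0.98.

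The NADPH oxidase family divided between phagocyte and epithelial subunits. Of 7 tested genes, 5 rose and 2 fell (median 2.08). The phagocyte subunits Ncf1, Ncf4 and Cyba and the small GTPase Rac2 rose by 3.05 ± 0.37, 2.95 ± 0.33, 2.08 ± 0.28 and 2.57 ± 0.14. Rac2 measured 8.5, 8.79 and 8.75 against 11.37, 11.2 and 11.17, among the tightest changes in the data. Noxa1 and Noxo1 serve the epithelial oxidase. Noxa1 fell by 1.77 and Noxo1 fell by 0.92 on the log2 scale. Noxa1 measured 6.65, 6.99 and 6.95 against 4.69, 5.44 and 5.16.

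Most sensors of microbial products and their executioners rose. Of 15 tested inflammasome genes, 13 rose and 2 did not pass (median 1.78). Casp1, which cleaves IL-1β, measured 9.69, 10.19 and 10.09 against 13.23, 12.55 and 13.41 (3.07 ± 0.36). Casp4, the sensor of cytosolic endotoxin, rose by 2.77 ± 0.35, and Gsdmd, the pore-forming gasdermin, by 2.52 ± 0.34. Mefv, which encodes pyrin, measured 5.13, 5.82 and 5.23 against 10.64, 8.55 and 10.55, a 22.9-fold rise (adjusted p = 0.000958). The scaffold Nlrp3 was above background on no Allo/Y array and 2 combined arrays and did not pass at 0.95 ± 0.38, and the adaptor Pycard did not pass at 1.38 ± 0.59. Another probe of each was called higher, at 0.75 and 1.03. In 12 of the 13 risen genes sample 8 lay nearest to Allo/Y.

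Of 25 tested genes of the Toll-like receptor pathway, 18 rose, 1 fell and 6 did not pass (median 1.52). The B cell and myeloid receptor Cd180 measured 6.5, 6.93 and 6.65 against 10.04, 9.2 and 10.15 (3.1 ± 0.38). Its partner Ly86 rose by 2.35 ± 0.25. Tlr13, a mouse sensor of bacterial ribosomal RNA, rose by 2.67 ± 0.54, Tlr6 by 2.5 ± 0.56 and Tlr2 by 1.11 ± 0.27. Tirap, an adaptor, fell by 0.73 on the log2 scale. Tlr3, the sensor of double-stranded RNA, at −0.13 ± 0.16 did not pass.

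C-type lectins gave 12 higher and 6 not passing of 18 tested (median 1.77). Clec4e, or Mincle, a receptor for mycobacterial glycolipid, measured 6.42, 6.73 and 6.34 against 10.61, 9.13 and 10.26 (3.5 ± 0.75). Clec4a1 rose by 3.2 ± 0.47, Clec4n (Dectin-2) by 2.89 ± 0.53 and Clec4a3 by 2.62 ± 0.47. These genes lie in 1 myeloid lectin cluster, as background. Clec1a at 0.17 ± 0.16 did not pass.

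Paired immune receptors of the Siglec, CD300, Trem and SIRP families gave 17 higher, none lower and 5 not passing of 22 tested (27 listed; median 1.95). Cd300lf, an inhibitory receptor of myeloid cells, was above background on no Allo/Y array and was at least 12.7-fold higher (adjusted p = 0.0024). Trem1, which amplifies neutrophil and monocyte responses, measured 5.35, 5.59 and 5.32 against 9.92, 7.81 and 10.02, a 14.2-fold rise. Sample 8 was about midway between the groups. Sirpb1a rose by 3.49 ± 0.74 and Siglec1, the sialoadhesin of macrophages, by 3.34 ± 0.48. Siglech, a marker of plasmacytoid dendritic cells, gave 0.25 ± 0.25 and Cd33 gave 0.26 ± 0.2, and neither passed. Ms4a genes, tetraspan proteins near one another in the genome, gave 5 higher, 1 lower and 2 not passing of 8 tested (15 listed; median 1.82). Ms4a8a rose by 3.37 ± 0.56 and Ms4a6d by 3.07 ± 0.54. Ms4a6c and Ms4a6b were above background on no Allo/Y array and were at least 4.24-fold and 2.91-fold higher. Ms4a5 fell by 1.68 on the log2 scale. The B cell member Ms4a1 at 0.37 ± 0.22 did not pass.

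Monocyte and macrophage identity genes gave 16 higher and 7 not passing of 23 tested (28 listed; median 1.62). The scavenger receptor Msr1 measured 4.53, 5.09 and 4.99 against 8.43, 6.71 and 8.62 (3.05 ± 0.78), and was above background on 1 Allo/Y array. Csf1r, the macrophage growth factor receptor, rose by 1.35 ± 0.28. Mertk, which clears dying cells, gave −0.32 ± 0.28 and did not pass. Genes of macrophage activation in either sense gave 19 higher, 2 lower and 10 not passing of 31 tested (median 1.91). The chitinase-like proteins led, as Chil3 measured 5.66, 5.65 and 5.63 against 13.33, 11.12 and 11.57, and Chil4 measured 5.28, 5.73 and 5.31 against 13.26, 10.85 and 11.3. These neighbors have near-identical transcripts and moved in parallel array by array. Acod1, which makes itaconate, measured 7.27, 7.34 and 7.5 against 12.54, 11.12 and 12.65, a 26.6-fold rise (adjusted p = 0.00108). Ido1, which degrades tryptophan, rose by 2.85 ± 0.48.

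Arginine metabolism was uneven. Ass1, an enzyme of arginine synthesis chosen after its values were seen, was called higher (adjusted p = 0.00124), while Asl was not called (0.918). Arg1 measured 7.65, 7.47 and 7.78 against 9.75, 8.32 and 11.31 and did not pass at 2.16 ± 1.27 (adjusted p = 0.18), with all 3 combined arrays above Allo/Y but far from one another. Nos2 was above background on no Allo/Y array and on 2 combined arrays, and did not pass at 1.31 ± 0.79. Arg2, the mitochondrial arginase, fell from 9.81, 10.05 and 9.96 to 8.57, 8.78 and 8.58 (−1.3 ± 0.17, adjusted p = 0.000381). Ptges, which makes prostaglandin E, fell from 10.32, 10.63 and 10.47 to 7.25, 8.51 and 7.6.

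Dendritic cell genes gave 12 higher, 3 lower and 6 not passing of 21 tested (median 1.49). Genes known from the cross-presenting subset went both ways. Irf8 measured 8.05, 8.27 and 7.99 against 11.04, 10.28 and 10.91 (2.63 ± 0.24). Clec9a measured 7.0, 7.28 and 7.12 against 9.11, 8.83 and 10.04 (2.19 ± 0.29). Batf3, chosen after its values were seen, was also called higher (adjusted p = 0.000211). The related gene Batf, which T cells also use, rose by 2.41 ± 0.26. Cadm1, Cd24a and Id2, which the cross-presenting subset and epithelium both express, were lower. Cadm1 fell by 1.57 and Id2 fell by 1.0 on the log2 scale, and Cd24a, above background on no combined array, was at least 1.91-fold lower.

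Neutrophil genes gave 10 higher and 9 not passing of 19 tested (28 listed; median 1.33), with 7 of the higher calls among genes above background on all 6 arrays. Cd177 measured 5.15, 5.19 and 4.95 against 9.88, 7.3 and 9.37, a 13.5-fold rise (adjusted p = 0.00461). Slpi, a protease inhibitor that epithelium makes as well, rose by 2.47 ± 0.64. Stfa1, a stefin, gave 0.29 ± 0.55 and did not pass. S100a8 and S100a9 (adjusted p = 0.144 each), Ltf (0.833), Mmp9 (0.415) and Lcn2 (0.249) did not pass either. Mmp9 and Lcn2 had negative differences. The mean of the list was 9.28 in sample 7, 8.48 in sample 8 and 9.69 in sample 9.

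Of 11 tested genes of mast cells, basophils and eosinophils, 3 rose, 1 fell and 7 did not pass (median 0.25). Hdc, which makes histamine, rose by 1.25 ± 0.41 and Fcer1a, the IgE receptor chain, by 0.77 ± 0.22. Kit, the growth factor receptor of mast cells, did not pass at −0.02 ± 0.32. Gata2, which mast cells share with prostate epithelium, fell from 12.34, 12.39 and 12.49 to 9.53, 10.65 and 9.46. B cell genes gave 5 higher, 1 lower and 11 not passing of 17 tested (median 0.48). Fcmr, the IgM receptor, rose by 1.76 ± 0.51, Cxcr5 by 1.72 ± 0.45, Cd79b by 1.28 ± 0.38 and Cd22 by 1.22 ± 0.31. In Cd79b and Fcmr sample 8 lay close to the highest Allo/Y array. Sdc1, carried by plasma cells and epithelium, fell by 1.29 on the log2 scale.

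Genes of the T cell receptor complex and its signaling chain gave 22 higher, none lower and 1 not passing of 23 tested (29 listed; median 2.17). Here the odd array was sample 9, which lay nearest to Allo/Y in 19 of the 22, against 3 for sample 8 and none for sample 7. Cd6, a costimulatory receptor, measured 7.76, 8.03 and 8.17 against 11.36, 11.87 and 10.14, an 8.81-fold rise (adjusted p = 0.000655). Lat, the membrane scaffold of the receptor, measured 6.3, 6.2 and 6.44 against 9.54, 9.65 and 8.48 (2.91 ± 0.3). Cd8b1 measured 8.93, 8.9 and 8.52 against 12.06, 12.16 and 11.04, but its other probes ran from −0.64, called lower, to 2.8. Lcp2, an adaptor that myeloid cells use too, measured 5.01, 5.81 and 5.46 against 8.69, 7.82 and 8.87, with sample 8 the lowest. Cd3e rose by 2.02 ± 0.4. Cd4 was above background on no Allo/Y array and was at least 1.72-fold higher. Lef1, a factor of naive T cells, gave 0.4 ± 0.2 and did not pass.

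**Figure D3:**
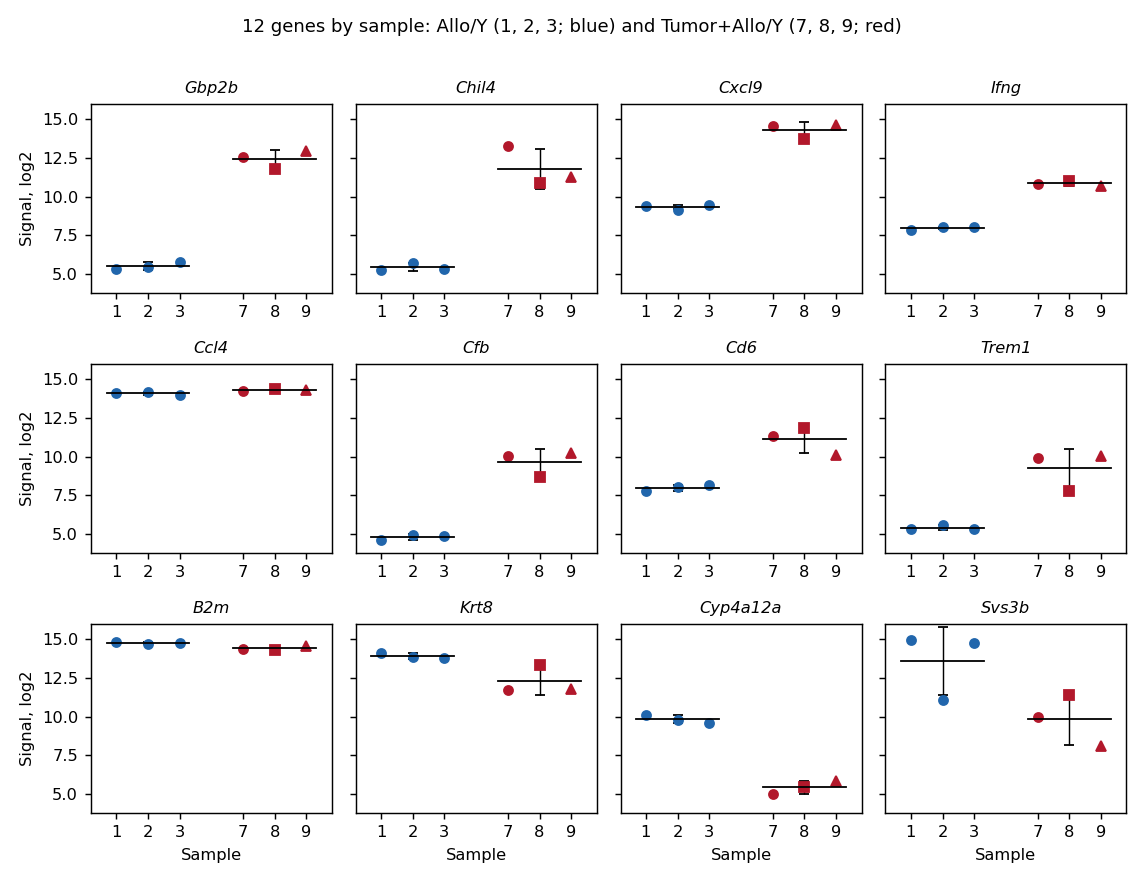
Log2 signal of 12 genes in each of the 6 arrays (points; blue for Allo/Y samples 1, 2 and 3, red for Tumor+Allo/Y samples 7, 8 and 9); horizontal lines are group means and bars are ± SD, n = 3. Sample 8 was the lowest red point for Trem1 (7.81) and the highest for Cd6 (11.87) and Krt8 (13.32), and the groups overlapped for Svs3b.

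**Figure D4:**
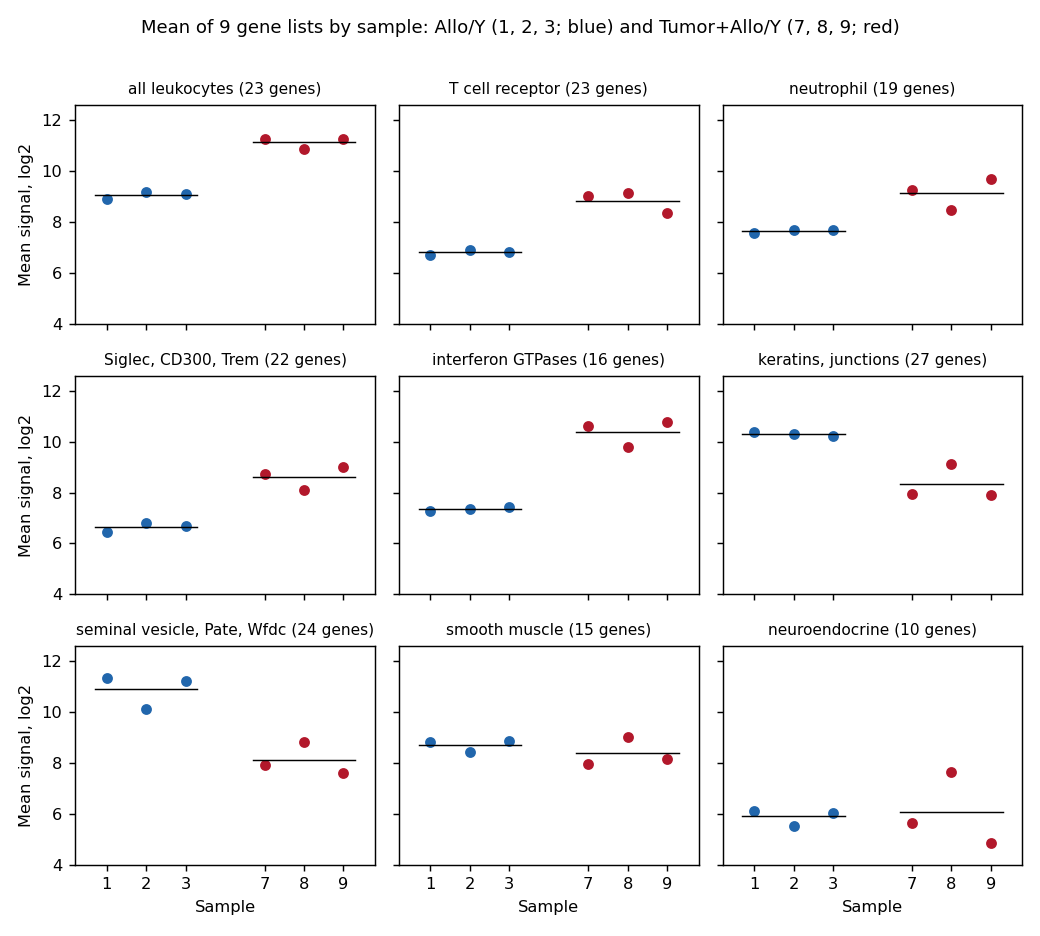
Mean log2 signal (vertical axis) over the tested members of 9 gene lists in each array (horizontal axis; blue Allo/Y, red Tumor+Allo/Y, black lines group means). Sample 9 had the lowest T cell receptor mean of the red points (8.38) and sample 8 the lowest neutrophil mean (8.48) and the highest keratin mean (9.11).

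Receptors of natural killer and cytotoxic cells gave 21 higher and 1 not passing of 22 tested (27 listed; median 1.81). Klrk1, the activating receptor NKG2D, measured 5.46, 5.76 and 5.68 against 9.05, 8.44 and 9.44, a 10.1-fold rise (adjusted p = 5.85e-05). Klrg1, carried by effector T and natural killer cells, measured 5.35, 6.03 and 6.06 against 8.94, 8.96 and 8.07 (2.85 ± 0.33). Klra2 rose by 3.54 ± 0.55 and Klra8 by 2.78 ± 0.37, while Klra1 did not pass at 0.95 ± 0.44. Members of the Klra family are near-identical, and whether their probes tell them apart was not tested.

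Cytotoxic granule genes gave 9 higher and 4 not passing of 13 tested (20 listed; median 1.92). Gzmk measured 5.38, 5.8 and 5.28 against 8.24, 8.39 and 7.27 (2.48 ± 0.26). Serpinb6b, an intracellular serpin, rose by 2.72 ± 0.23, Srgn, the granule proteoglycan, by 2.67 ± 0.32 and Stx11, needed for granule fusion, by 2.55 ± 0.28. The brightest probe of Prf1, perforin, gave 0.08 ± 0.27 and did not pass, but its other probe was called higher at 2.87. Perforin therefore has no settled direction here.

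Costimulatory and inhibitory receptors and ligands gave 20 higher and 3 not passing of 23 tested (median 2.33). Cd274 (PD-L1), an interferon-γ target, measured 9.09, 9.45 and 9.5 against 13.61, 12.56 and 13.37, a 14.2-fold rise (adjusted p = 0.000188). Ctla4 measured 6.28, 6.87 and 6.84 against 10.57, 10.51 and 9.61, an 11.9-fold rise, and Icos measured 7.07, 6.91 and 7.22 against 10.56, 10.33 and 9.47, an 8.29-fold rise. Cd274 was thus lowest in sample 8, and Ctla4 and Icos were lowest in sample 9. Of the 20 risen genes of this list, sample 8 lay nearest to Allo/Y in 8, sample 9 in 11 and sample 7 in 1. Pdcd1 was above background on no Allo/Y array and 2 combined arrays and did not pass at 0.67 ± 0.3. Icosl gave −0.14 ± 0.19, with another probe called lower at −0.79. All 9 tested SLAM family genes rose (median 1.91), led by Ly9 at 2.98 ± 0.25, Slamf1 at 2.63 ± 0.38, Slamf7 at 2.14 ± 0.29 and Cd84 at 2.09 ± 0.27.

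Transcription factors and memory markers of T cells gave 14 higher, 3 lower and 7 not passing of 24 tested (median 1.15). Stat4, which acts below the IL-12 receptor, measured 7.7, 8.2 and 7.96 against 10.77, 11.1 and 9.94 (2.65 ± 0.34), and Zeb2 rose by 2.08 ± 0.27. Cd44, the activation marker, rose by 1.98 ± 0.16, with other probes from −0.39 to 1.95. Gata3 fell by 1.61 and Id3 fell by 1.41 on the log2 scale, and prostate epithelium expresses Gata3 as well. The brightest Foxp3 probe gave 0.5 ± 0.22 and did not pass, while 3 others were called higher, up to 2.64. Itgae, the integrin of resident T cells, gave 0.33 ± 0.53 and Klf2 gave −0.34 ± 0.27, and neither passed. Gimap genes, GTPases of lymphocyte survival, gave 6 higher and 1 not passing of 7 tested (median 1.78), and in all 6 sample 9 lay nearest to Allo/Y. Gimap7 rose by 2.38 ± 0.32, Gimap1 by 2.32 ± 0.33, Gimap5 by 2.19 ± 0.27 and Gimap6 by 1.78 ± 0.39.

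Leukocyte adhesion genes gave 12 higher, 1 lower and 7 not passing of 20 tested (median 1.66). The LFA-1 chain Itgal measured 6.9, 7.13 and 7.19 against 10.26, 9.66 and 10.11 (2.94 ± 0.19, adjusted p = 1.93e-05). Itgb7 rose by 3.02 ± 0.26, Itgb2 by 2.59 ± 0.36 and the LFA-1 ligand Icam1 by 1.81 ± 0.19. Glg1, a selectin ligand of many cell types, fell by 0.61 on the log2 scale. Vcam1, the endothelial ligand, gave 0.87 ± 0.39 and did not pass.

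S100 and annexin genes had no common direction. Of 20 tested, 4 rose, 8 fell and 8 did not pass (median 0.01). S100a4, abundant in migrating leukocytes, rose by 2.55 ± 0.35, S100a13 by 1.07 ± 0.18 and Anxa6 by 0.91 ± 0.15. S100a10 rose by 0.76 ± 0.18. Among those that fell were S100a14 at −1.74 ± 0.55, Anxa9 at −1.53 ± 0.44, S100a16 at −1.23 ± 0.24 and Anxa3 at −1.12 ± 0.28. Lysosomal proteases and their inhibitors gave 13 higher, 2 lower and 10 not passing of 25 (median 0.55). Ctss, which trims the class II invariant chain, rose by 2.18 ± 0.39 and Ctsc, which activates granzymes, by 1.74 ± 0.33. Cst7, a cystatin, rose by 1.9 ± 0.21 and Ctsz by 1.78 ± 0.34, while Ctso fell by 1.11 on the log2 scale. Ctsf fell from 9.27, 9.16 and 9.19 to 5.94, 7.7 and 6.2. Of 9 tested Ly6 genes (18 listed), 1 rose, 2 fell and 6 did not pass (median −0.94). The risen gene, Ly6c1, measured 11.21, 11.4 and 11.46 against 14.11, 12.98 and 14.46 (2.5 ± 0.44). Ly6g6d fell by 1.88 on the log2 scale and Gpihbp1, which anchors lipoprotein lipase to capillaries, fell by 0.94.

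Glycolysis and respiration were counted apart. Of 26 tested genes of glycolysis and hypoxia, 17 rose, 2 fell and 7 did not pass (median 0.9). Hk3, the hexokinase of myeloid cells, measured 7.31, 7.76 and 7.47 against 12.47, 10.79 and 12.77, a 22.6-fold rise (adjusted p = 0.00101). The hexose transporter Slc2a6 rose 12.5-fold (3.64 ± 0.39) and Pfkp, a phosphofructokinase, 11.8-fold (3.56 ± 0.4). Gapdh, Ldha and Slc2a1 moved less, by 1.13 ± 0.21, 0.92 ± 0.18 and 0.85 ± 0.28. Egln3, an oxygen-sensing hydroxylase, rose by 2.14 ± 0.41, with its other probe at 0.25, and Hif1a by 1.62 ± 0.54, with its other probe at 0.46. Adm, a hypoxia-induced vascular peptide, was at least 2.59-fold lower, and Ddit4 fell by 0.56 on the log2 scale. In 16 of the 17 risen genes sample 8 lay nearest to Allo/Y. Of 34 tested respiratory chain genes, 3 rose, 3 fell and 28 did not pass (median 0.13), shares well below those of all genes. Atp5a1 rose by 0.93 ± 0.24, Cox5a by 0.53 ± 0.14 and Ndufa9 by 0.4 ± 0.14. Ndufa1 fell by 0.69 on the log2 scale, Ndufa4 fell by 0.51 and Ndufv1 fell by 0.47.

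Ribosomal protein genes gave none higher, 6 lower and 27 not passing of 33 tested (median −0.15). Rpl22 fell from 12.0, 12.09 and 11.9 to 9.77, 11.0 and 10.17, and Rps6 fell by 0.49 on the log2 scale, Rpl12 fell by 0.48 and Rplp0 fell by 0.47. Genes of the secretory pathway gave none higher, 15 lower and 18 not passing of 33 (median −0.38). Kdelr3, a retrieval receptor, fell 4.35-fold, from 9.46, 9.24 and 9.74 to 7.15, 8.14 and 6.79. Pdia4, a disulfide isomerase, fell from 11.64, 11.42 and 11.5 to 10.15, 10.27 and 9.95 (−1.4 ± 0.14, adjusted p = 8.59e-05). Ssr4, of the translocon, fell by 1.08 on the log2 scale. Dnajc3, a cochaperone, fell by 1.0 on the log2 scale.

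Proliferation genes rose more often than they fell, though most did not pass. Of 35 tested, 12 rose, 1 fell and 22 did not pass (median 0.16). Over all genes, 20.6% were higher and 27.3% lower. Rrm2, which makes deoxynucleotides, measured 6.18, 6.47 and 6.63 against 7.68, 8.05 and 7.64 (1.37 ± 0.33). Birc5 rose by 0.99 ± 0.32, Cenpa by 0.98 ± 0.26, Top2a by 0.96 ± 0.27 and Aurkb by 0.96 ± 0.3. Dut fell by 0.78 on the log2 scale, with its other probe at 0.2. Stress and immediate early genes gave 3 higher, 8 lower and 14 not passing of 25 (median −0.34). Nr4a2 rose by 1.83 ± 0.23, Egr3 by 0.64 ± 0.19 and Fosl2 by 0.59 ± 0.15. Jun fell from 12.19, 11.78 and 12.28 to 10.23, 10.74 and 10.38. Of the heat shock genes, Hsph1, chosen after its values were seen, did not pass at −0.34 ± 0.44. Others fell, Hspa1a at −1.97 ± 0.61, Hspa1b at −2.04 ± 0.58 and Hspb1 at −2.08 ± 0.76, and Hspa1a was lowest in sample 9, at 10.19 against 11.84 and 12.37. Hspa1a and Hspa1b are near-identical copies. Zfp36, which destabilizes cytokine transcripts, gave 0.04 ± 0.13 and did not pass.

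Many epithelial transcripts fell, though with wide spread in the combined group. Of 27 tested keratin and junction genes, none rose, 15 fell and 12 did not pass (median −2.06), and the groups did not overlap in 26 genes that were lower. Trp63, the factor of basal cells, fell from 8.86, 8.9 and 9.08 to 5.65, 6.68 and 5.26, an 8.48-fold fall (adjusted p = 0.000704). Cldn10, a claudin, fell from 12.9, 12.71 and 12.51 to 8.7, 10.94 and 9.27. The basal keratin Krt14 fell from 12.15, 10.66 and 11.53 to 7.51, 9.48 and 7.23, and Krt5 from 7.68, 8.46 and 7.5 to 6.1, 6.45 and 4.75. The luminal keratin Krt8 measured 14.11, 13.83 and 13.78 against 11.74, 13.32 and 11.79 and did not pass (−1.62 ± 0.84, adjusted p = 0.134). Sample 8 kept the highest keratin signal of the combined arrays, nearest to Allo/Y in 14 of the 15 fallen genes. Elf5, an epithelial Ets factor, measured 9.71, 7.72 and 8.84 against 5.07, 5.33 and 4.44 and was called lower, but was above background on only 1 combined array.

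Prostate secretory genes gave 1 higher, 13 lower and 7 not passing of 21 tested (31 listed; median −2.1). Tgm4, the prostate transglutaminase, fell from 14.45, 13.03 and 13.28 to 9.62, 11.61 and 10.04, an 8.95-fold fall (adjusted p = 0.0102). Mme, the membrane peptidase neprilysin, fell 11.0-fold, from 11.31, 11.55 and 11.6 to 7.24, 9.3 and 7.53. Azgp1 fell by 3.02 and Timp4 fell by 3.09 on the log2 scale. Pbsn, probasin, whose promoter drives the transgene, was above background on all 3 Allo/Y arrays and no combined array and was at least 1.46-fold lower. Klk1, a kallikrein, went the other way, above background on no Allo/Y array and at least 2.08-fold higher.

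Seminal vesicle proteins and the Pate, Spink, Wfdc and β-defensin families gave none higher, 20 lower and 4 not passing of 24 tested (32 listed; median −3.15). Pate14 fell from 14.3, 11.48 and 13.94 to 9.31, 9.83 and 7.79, a 19.2-fold fall (adjusted p = 0.00847). Spink11, a protease inhibitor, was above background on no combined array and was at least 12.3-fold lower. Defb42, a β-defensin, fell 13.5-fold. Pate9 fell 12.0-fold, from 11.73, 11.62 and 11.48 to 7.02, 9.09 and 7.97. The protease inhibitor genes Wfdc15b, Spink8 and Wfdc6b fell, at −3.45 ± 0.86, −3.41 ± 1.02 and −3.48 ± 0.66. Sample 8 was the highest combined array for each of these 4 genes. The list's mean was 11.33, 10.12 and 11.24 in Allo/Y, lowest in sample 2. Svs3b, chosen after its values were seen, measured 14.94, 11.09 and 14.77 against 10.01, 11.4 and 8.11 and was called lower although sample 2 lay under sample 8. Svs3a measured 11.04, 5.34 and 10.17 against 5.46, 7.04 and 4.74 and did not pass, and these copies are near-identical. Sva fell by 4.37 ± 1.53 in the same overlapping manner. Whether sample 2 held less seminal vesicle tissue was not tested.

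Metabolic enzymes of the epithelium gave none higher, 19 lower and 9 not passing of 28 (median −1.27). Cyp4a12a, a fatty acid hydroxylase, fell from 10.1, 9.79 and 9.59 to 5.01, 5.44 and 5.88, a 20.8-fold fall (adjusted p = 2.44e-05). It was the largest fall among genes whose groups did not overlap, with gene models and clone or accession symbols left out. Cdo1, which oxidizes cysteine, Gsta3, a glutathione transferase, and Ces1d, a carboxylesterase, fell too, at −3.6 ± 0.75, −2.89 ± 0.52 and −2.81 ± 0.69. Acly, which supplies acetyl-CoA for lipids, gave 0.24 ± 0.2 and did not pass. Polyamine, zinc and ion transport genes gave 2 higher, 13 lower and 6 not passing of 21 (median −1.47). The risen genes were of polyamine metabolism. Smox, spermine oxidase, measured 10.37, 10.26 and 10.19 against 11.83, 11.12 and 11.55 (1.23 ± 0.27), and Odc1, the first enzyme of polyamine synthesis, rose by 0.61 ± 0.2. The channel and pump genes Aqp5 and Atp1b1 and the zinc exporter Slc30a2 fell, at −2.45 ± 0.46, −2.53 ± 0.79 and −2.42 ± 0.4. The pump gene Atp13a4 fell by 3.56 on the log2 scale. Depp1 and Zbtb8b, 2 genes of no list, fell by 3.58 and fell by 3.42, completing the 15 largest falls of the same ranking.

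Growth factor pathways gave 1 higher, 21 lower and 11 not passing of 33 tested (43 listed; median −1.61). Egf fell from 10.28, 10.23 and 10.5 to 6.97, 8.42 and 7.16, a 7.08-fold fall, though its other probe gave −0.55 and was not called. The epithelial receptors Fgfr2 and Erbb2 fell, at −2.64 ± 0.83 and −2.46 ± 0.71, and so did Dkk3, a secreted protein of the Dickkopf family, at −2.67 ± 0.7. Hgf, which acts on epithelium and is made by stroma and myeloid cells, rose from 7.23, 7.05 and 7.15 to 8.35, 7.94 and 9.16 (1.34 ± 0.43). Its other probe gave 0.46 and was not called. Notch1 at −0.24 ± 0.15 did not pass.

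Endothelial genes gave 3 higher, 14 lower and 9 not passing of 26 tested (median −1.02). Emcn, a mucin of veins and capillaries, fell from 9.21, 7.72 and 9.11 to 5.67, 6.68 and 6.12, a 5.74-fold fall. Aqp1, Robo4 and Esam fell, at −2.33 ± 0.59, −2.18 ± 0.53 and −2.15 ± 0.48. In each of these 4 genes sample 2 was the lowest Allo/Y array and sample 8 the highest combined array. The risen genes were Flt1 at 2.13 ± 0.8 (adjusted p = 0.0489), Icam2 at 2.08 ± 0.28 and Lyve1 at 1.62 ± 0.44, and leukocytes express each of these as well. Pecam1 gave −0.13 ± 0.36 and did not pass. Fibroblast and matrix genes gave 4 higher, 11 lower and 18 not passing of 33 (median −0.55). Fn1, fibronectin, measured 7.23, 7.85 and 7.64 against 11.0, 9.77 and 9.94 (2.66 ± 0.34), and Thy1, which T cells also carry, rose by 1.98 ± 0.33. Pi16 rose by 1.78 ± 0.42 and Mmp14, a membrane protease, by 1.1 ± 0.28, while Eln, elastin, fell by 1.19 on the log2 scale. Mmp2 and Timp2 fell, at −1.56 ± 0.47 and −1.5 ± 0.51. Timp3 fell by 1.81 on its brightest probe, with others from −1.27 to 0.19. The collagen gene Col1a1 did not pass, at 0.06 ± 0.19.

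Smooth muscle genes gave 1 higher, 1 lower and 13 not passing of 15 (median −0.34). Acta2, smooth muscle actin, measured 12.88, 12.32 and 12.86 against 11.53, 13.37 and 11.86 (−0.43 ± 0.84), with sample 8 above all the others. Rgs5, of pericytes, was above background on no combined array and was at least 1.7-fold lower. The gene that rose, Ckb, a creatine kinase, gave 0.87 ± 0.16. Of 11 housekeeping genes, 2 rose, 2 fell and 7 did not pass (median 0.15), and Gusb rose by 0.83 ± 0.15. Ppia, cyclophilin A, gave 0.06 ± 0.1 and did not pass. The Y-linked genes Kdm5d at −0.11 ± 0.16 and Uty at 0.32 ± 0.17 did not pass.

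**Figure D5:**
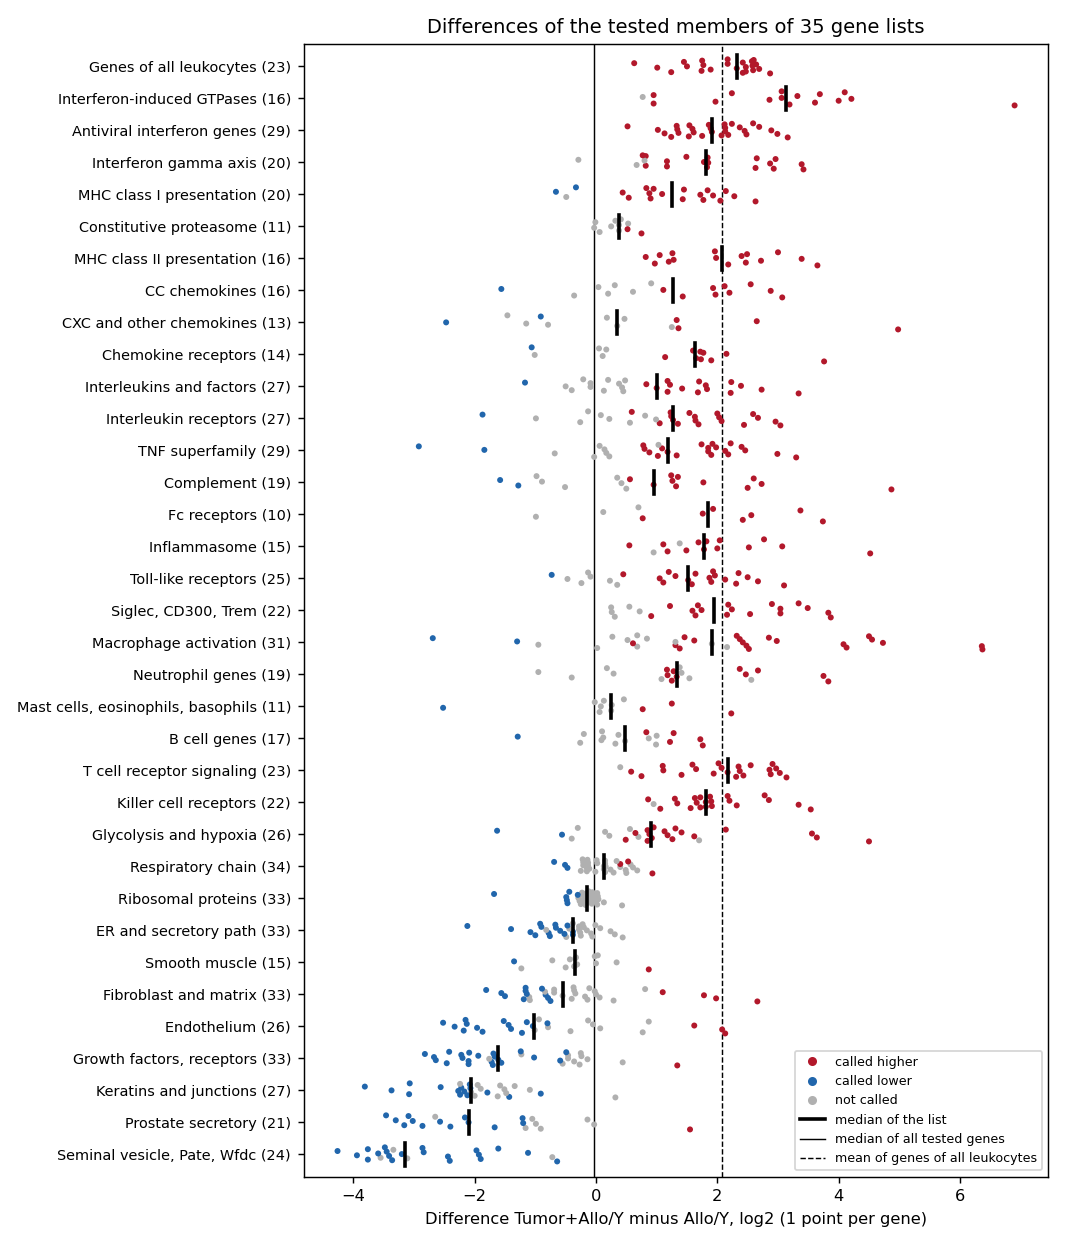
Log2 difference of Tumor+Allo/Y minus Allo/Y (horizontal axis) for each tested member of 35 gene lists (rows), with a black bar at each list's median. The solid line is the median over all genes (−0.04) and the dashed line the mean of the leukocyte list (2.08); the interferon GTPases center at 3.13 and the seminal vesicle families at −3.15.

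Because the leukocyte list itself rose, each array was also shifted to an equal mean of its 23 genes. This moved the median of all genes from −0.04 to −2.13, by the list's own mean rise of 2.08. On this scale 11220 of 11971 genes were called (93.7%), 136 higher (1.14%) and 11084 lower (92.6%). Of the 2467 genes higher on the first scale, 136 remained higher, 666 did not pass and 1665 were lower. Directions given above for genes that rose by less than the leukocyte list thus flip or do not pass here. Ccl5, Cd3e and Ptprc, for example, rose on the first scale and did not pass on this one, and Csf1r, C1qa, Tnf and Il1b were lower on it.

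Families differed in how many members stayed higher than the leukocyte list. The interferon-induced GTPases kept 10 of 16, both Schlafen genes stayed higher, and so did 6 of 31 macrophage activation genes, 6 of 23 costimulatory genes, 5 of 20 interferon-γ axis genes, 4 of 29 type I interferon genes, 4 of 16 class II genes, 4 of 22 Siglec, CD300 and Trem genes, 3 of 26 glycolysis genes, 3 of 15 inflammasome genes and 3 of 7 NADPH oxidase genes. Beside these and the leukocyte list itself, each family kept 2 or fewer. The T cell receptor list kept 2 of 23, the granule list 1 of 13 and the B cell list none of 17. The shift centers each array on the leukocyte list itself, so by construction some of its genes lie above their mean and some below. Of its 23 genes, 8 were called higher and 5 lower. Families with a smaller share than 8 of 23 thus kept less than the reference list itself. Rac2, 1 of the 3 NADPH oxidase genes, also belongs to that list. Among the 8 were Dock2 at 2.87 ± 0.23, Hcls1 at 2.69 ± 0.34, Arhgdib at 2.64 ± 0.26 and Was at 2.6 ± 0.2 on the first scale. The other probe of Arhgdib gave 0.29 and was not called. Of genes called higher on this scale, 27 of 109 with a promoter window held an ISRE word (24.8%) and 20.2% a GAS word.

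Further genes were among the 15 steepest rises, of which Batf2 and Hp also counted in the dendritic cell and macrophage activation lists. Serpina3f, a serine protease inhibitor, measured 6.87, 6.97 and 7.02 against 12.59, 11.55 and 12.29, a 36.5-fold rise (adjusted p = 7.01e-05). Calhm6, an ion channel of the CALHM family, measured 6.02, 6.27 and 6.4 against 11.57, 10.25 and 11.91, a 32.4-fold rise (adjusted p = 0.000451). Batf2, a leucine zipper factor that interferon-γ induces, measured 4.97, 5.39 and 5.45 against 10.65, 8.8 and 10.54, a 26.5-fold rise. Hp, haptoglobin, rose 23.4-fold, Ifi205, a nuclear DNA-binding protein, 21.9-fold and F10, coagulation factor X, 21.2-fold. In all of these sample 8 was the lowest combined array. The steepest rises were taken only from genes whose groups did not overlap, with gene models and clone or accession symbols left out.

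Against the Tumor transfer alone, limma called no gene in the combined group (0 of 11971), with 451 genes at an unadjusted p under 0.05 and a smallest adjusted p of 1. This count does not show that the transfers act alike.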

How the data were processed

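Each array carried cRNA of CD45+ cells of 1 mouse, on an Illumina mouse BeadChip. The deposited raw table gives a signal intensity per probe and array, and per the file headers a detection p-value beside each. GenomeStudio made these values, per the submitters' processing notes, which give no settings here. The normalized intensity table that the authors deposited served as an alternative.

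The analysis used R 4.3.3 and limma 3.58.1. Background was corrected by neqc, whose negative-control mean and spread came from the detection p-values. An offset of 16, quantile normalization and log2 followed. A probe needed detection at p under 0.05 on 3 or more arrays, and each gene was read from its brightest probe with 1 symbol in the platform annotation, updated through RefSeq. A linear model of 4 group means on the 12 arrays used moderated variances (8 residual and 2.46 prior degrees of freedom). Tests are two-sided, with Benjamini-Hochberg adjustment over 11971 genes. An exact permutation test of 3 against 3 cannot go below 0.1 and was not used. p-values rest on the spread between mice within the 4 groups, pooled over the 12 arrays, and the number of arrays limits precision. A pooled spread does not reflect that Tumor+Allo/Y varied more than Allo/Y, with median SDs per gene of 0.254 and 0.133. Where no array of a group detected a gene, its fold is a lower bound against the dimmest detected signal. The second scale shifted each array by its mean over 23 leukocyte genes. Only the fit was tested on simulated gene values, with the same spread in every group and few changed genes. The steps before the fit were not part of that test.

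Members and the 58 gene lists were chosen with earlier results of these data known. Named genes are the 15 largest rises and falls without overlap, up to 4 rises and 4 falls and the 2 smallest uncalled differences of each list, a set of key genes and the extremes of the second scale. Gene models and clone or accession symbols were left out of the rankings of rises, falls and extremes. Some of the uncalled genes so picked appear only in the counts. Promoter sequences are RefSeq's on GRCm38.p6. Alternatives changed the background correction, normalization, detection filter, choice of probe, arrays in the fit, variance model, array weights and minimum fold, and left out each array in turn.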

Additional observations from a re-analysis of the deposited data

How the results depend on the processing

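Of the counts of called genes, most settings moved none by more than 1.5 times. A minimum fold of 1.5 left 1540 called genes, 864 higher and 676 lower, and 53 higher relative to the leukocyte list, by its stricter construction. Leaving out each array in turn gave 3950 to 6598 called genes, 1779 to 2871 higher and 2171 to 3727 lower. The lowest of each came without Tumor+Allo/Y sample 7, and the 2171 lower genes were the only such count more than 1.5 times away from the reported one. Relative to the leukocyte list the same runs gave 11049 to 11335 called, 102 to 176 higher and 10942 to 11159 lower. Array weights raised the number higher on that scale to 266, and the cause was not tested. Without the detection filter 19057 genes were tested, and 18334 were called on that scale, 18185 of them lower, by the larger number of genes. Of the 297 called genes that the text names, leaving aside Ass1 and Batf3, 229 kept their direction and call under every alternative other than the minimum fold. With it as well, 187 did. Of the 6 arrays of these groups left out in turn, sample 7 cost the most calls, 52, and sample 8 the fewest, 6. No called gene but Ikbkg reversed, to 0.39 on its most variable probe. Some uncalled genes changed sign. Leaving out 1 array gave −0.06 to 0.11 for Ccl3, −0.38 to 3.43 for Chil1, −0.01 to 0.14 for Col1a1, −0.68 to 0.12 for Hsph1, −0.22 to 0.02 for Il23a, −0.11 to 0.65 for Itgae, −0.25 to 0.14 for Kit, −0.39 to 0.07 for Osmr, −0.49 to 0.11 for Pecam1, −0.11 to 0.23 for Prf1, −0.06 to 0.02 for Psmb6, −0.04 to 0.19 for Rela and −0.62 to 2.35 for Syt1. Median scaling in place of quantile gave −0.04 for Col1a1, 0.05 for Kit, −0.05 for Ppia and 0.21 for Psmb6. Array weights gave 0 for Ccl3 and −0.02 for Col1a1. The mean of a gene's probes gave 0.16 for Ifngr2, 0.11 for Kit, 0.23 for Pecam1 and 0.08 for Psmb6, and the most variable probe gave 0.5 for Ifngr2, 0.91 for Pecam1, which was then called, and 0.16 for Psmb6. No paired analysis was possible because the labels number the samples from 1 to 12 and no number is shared between the groups. Signal limits the low genes: 158 tested genes were above background on all 3 combined arrays and no Allo/Y array, and 253 the reverse. In 72 genes another probe was called in the opposite direction. All 6 arrays had 19165 to 21718 probes above background (42.3% to 48%).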

Other observations

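Neuroendocrine genes, which mark an aggressive form of TRAMP tumor as background, were high in 1 array alone. The mean of the 10 tested genes was 7.65 in Tumor+Allo/Y sample 8, against 5.65 in sample 7, 4.87 in sample 9 and 5.53 to 6.13 in Allo/Y. Syt1, a synaptic vesicle protein, measured 6.76, 5.07 and 6.4 in Allo/Y and 6.5, 10.36 and 4.42 in Tumor+Allo/Y. Insm1, a neuroendocrine factor, measured 4.53, 4.56 and 4.39 against 4.5, 9.38 and 4.76 and was above background in sample 8 only. Neither gene was called (adjusted p = 0.501 and 0.177), and of the list only Sox2 was, at −1.25 ± 0.24. These 2 genes were chosen after their values were seen. Chil1, a chitinase-like protein, was likewise high in 1 array, at 6.71, 5.21 and 12.83 in samples 7, 8 and 9, also chosen after its values were seen.

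Among the 136 genes that rose by more than the leukocyte list were several of no list, all chosen after their values were seen. Gpr35, a receptor of myeloid cells and gut, measured 5.42, 6.25 and 5.72 against 10.01, 8.8 and 10.53 (3.99 ± 0.62). Samhd1, which degrades deoxynucleotides and restricts viruses, measured 9.52, 9.94 and 9.51 against 13.27, 12.1 and 13.25 (3.21 ± 0.41). Dnase1l3, a nuclease that phagocytes secrete, measured 6.32, 6.73 and 6.34 against 9.45, 9.6 and 9.74 (3.14 ± 0.26), with sample 8 between samples 7 and 9. Prm1, a sperm protamine, was above background on no Allo/Y array and all 3 combined arrays, at least 12.8-fold higher, and its other probe gave 4.12. Of the 3819 kept probes without 1 gene symbol, 739 were called higher and 803 lower.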
